A study of Mus musculus with 12 samples.

Results

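The 10 genes described here make nitric oxide, recycle or split its precursor arginine, make polyamines, or acetylate polyamines or, for Sat2, thialysine. The genes are Nos1, Nos2, Ass1, Asl, Arg2, Odc1, Srm, Sms, Sat1 and Sat2. They were chosen by name, with earlier results of these data known, and all 10 were found among the 21834 protein-coding genes of the deposited count table. The cells were BV2 microglia, an immortalized mouse microglial line, of 2 lines, one with a control shRNA (shCtrl) and one with an shRNA targeting Anxa2 (shAnxa2). Each line was left untreated (CTRL) or taken through oxygen-glucose deprivation and reoxygenation (OGD/R), a culture model of ischemia and reperfusion, with 3 RNA-seq libraries in each of the 4 groups (shCtrl-CTRL, shCtrl-OGDR, shAnxa2-CTRL and shAnxa2-OGDR). By the labels, deprivation lasted 4 h in glucose-free medium with 1% oxygen and reoxygenation lasted 12 h. The study's methods give a longer reoxygenation for BV2 cells.

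All 4 groups carry an shRNA, so none is the parental line, and all are cultures of 1 cell line rather than microglia in tissue. Libraries were grouped by their titles, because a cell type label attached to the same samples names the Anxa2 knockdown for shCtrl-OGDR libraries too and conflicts with the titles. The study's methods call the 3 libraries of a group biological replicates, each with technical replicates, and neither they nor the labels say how the cultures were separated. The p-values weigh the differences between groups against the spread between these libraries, not against that between independently made lines. With 1 line per shRNA, an effect of the shRNA and a difference between the lines cannot be told apart.

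Total counts per library ranged from 19521877 to 27288843. Anxa2, the targeted gene, was at 172 ± 6.36 CPM (counts scaled to library size by TMM, mean ± SD, n = 3) in shCtrl-CTRL and 279 ± 24.3 CPM in shCtrl-OGDR, and in the shAnxa2 line at 40.4 ± 4.86 CPM without and 19.6 ± 1.26 CPM after OGD/R. This checks the shRNA of each library, not whether the cells went through OGD/R, so every direction given for OGD/R below rests on the titles and would turn in a line whose CTRL and OGDR titles were exchanged. Across the 11626 genes tested, 5239 were called for OGD/R in both lines, and 5165 of these (98.6%) moved in opposite directions in shCtrl and shAnxa2 cells. The 2 comparisons share no library. All 12 microglial markers examined passed the filter, with a summed level of 1445 to 1866 CPM per library, while none of 4 neuronal markers did and Snap25 and Syt1 were at 0 counts in every library. Of the astrocyte markers 1 of 4 and of the oligodendrocyte markers 2 of 4 passed, with summed levels of at most 0.969 and 6.61 CPM, and Aqp4 and Mog were at 0. Of the 4 endothelial markers, Kdr carried most of the signal and moved with the groups: their sum ranged from 167.2 to 170.4 CPM in shCtrl-CTRL, 61.2 to 67.9 CPM in shCtrl-OGDR, 116.3 to 123.7 CPM in shAnxa2-CTRL and 226.8 to 228.2 CPM in shAnxa2-OGDR. The markers Cdh5, Pecam1 and Cldn5 averaged at most 1.63 CPM in any group. The part of these shifts in the results below was not tested.

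Nitric oxide synthases turn arginine into nitric oxide and citrulline, and argininosuccinate synthase and lyase rebuild arginine from citrulline. Arginase splits arginine into urea and ornithine, and ornithine decarboxylase turns ornithine into putrescine, from which spermidine synthase and spermine synthase build the larger polyamines. Spermidine and spermine acetyltransferases mark polyamines for oxidation or export. In microglia and macrophages, arginine use is a textbook marker of state, with inducible nitric oxide synthase linked to pro-inflammatory activation and arginase to an alternative, repair-associated one.

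Both nitric oxide synthases rose after OGD/R in shCtrl cells and fell after OGD/R in shAnxa2 cells. Nos2, the inducible nitric oxide synthase (ENSMUSG00000020826, plus strand of chromosome 11 from 78811613 to 78851080 in mm39, the build that the labels name), had 57, 99 and 90 counts in shCtrl-CTRL and 1248, 1499 and 1136 counts in shCtrl-OGDR. It had 1918, 1820 and 2053 counts in shAnxa2-CTRL and 166, 211 and 112 counts in shAnxa2-OGDR. The 4 groups did not overlap once scaled, and the order from high to low was shAnxa2-CTRL (87.6 ± 6.12 CPM), shCtrl-OGDR (54.8 ± 5.16 CPM), shAnxa2-OGDR (7.43 ± 1.73 CPM) and shCtrl-CTRL (3.11 ± 0.648 CPM). By the quasi-likelihood test of edgeR, Benjamini-Hochberg adjusted over all genes tested, which gives every adjusted p below, the log2 fold change (below, log2 change) of Nos2 with OGD/R was 4.12 ± 0.129 (SE) in shCtrl cells (adjusted p = 7.26e-18) and -3.55 ± 0.114 in shAnxa2 cells (adjusted p = 8.38e-17). Against shCtrl cells, shAnxa2 cells had a log2 change of 4.80 ± 0.126 without OGD/R (adjusted p = 4.18e-19) and -2.87 ± 0.115 after it (adjusted p = 3.87e-16). Nos2 thus had its highest level in the libraries labelled shAnxa2-CTRL, not in either group labelled OGDR. In these bulk libraries, fewer cells expressing a gene and less of its RNA per cell cannot be told apart.

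Nos1, the synthase best known from neurons (ENSMUSG00000029361, plus strand of chromosome 5 from 117919097 to 118096905 in mm39), was also measured in these cells, in which the neuronal markers above did not pass the filter. Its counts were 314, 421 and 420 in shCtrl-CTRL, 1140, 1137 and 963 in shCtrl-OGDR, 937, 1047 and 1207 in shAnxa2-CTRL, and 326, 450 and 383 in shAnxa2-OGDR. The scaled levels were 14.7 ± 1.34, 45.8 ± 3.14, 48.1 ± 2.29 and 17.7 ± 0.985 CPM in the same order. The groups shCtrl-OGDR (43.4 to 49.3 CPM) and shAnxa2-CTRL (45.8 to 50.4 CPM) overlapped with each other, and both lay above the other 2 groups, which did not overlap with each other. After OGD/R the log2 change was 1.64 ± 0.0771 in shCtrl cells (adjusted p = 9.18e-15) and -1.44 ± 0.0771 in shAnxa2 cells (adjusted p = 4.53e-13). The line difference was 1.71 ± 0.0772 without OGD/R (adjusted p = 5.64e-15) and -1.37 ± 0.0771 after it (adjusted p = 1.33e-13).

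Levels of different genes were compared only as CPM per kilobase of annotated exon (lengths from GENCODE M21, GRCm38). On this scale Nos2 ranged from 0.704 in shCtrl-CTRL to 19.9 in shAnxa2-CTRL, and Nos1 from 1.31 to 4.31 in the same groups. The ratio of Nos2 to Nos1 within a library was 0.532 ± 0.0683 in shCtrl-CTRL, 3.03 ± 0.285 in shCtrl-OGDR, 4.62 ± 0.480 in shAnxa2-CTRL and 1.07 ± 0.291 in shAnxa2-OGDR. Nos1 was therefore the higher of the pair in shCtrl-CTRL in all 3 libraries, and Nos2 the higher in shCtrl-OGDR and shAnxa2-CTRL. In shAnxa2-OGDR the ratio was 1.29, 1.19 and 0.739, on both sides of parity.

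**Figure D1:**
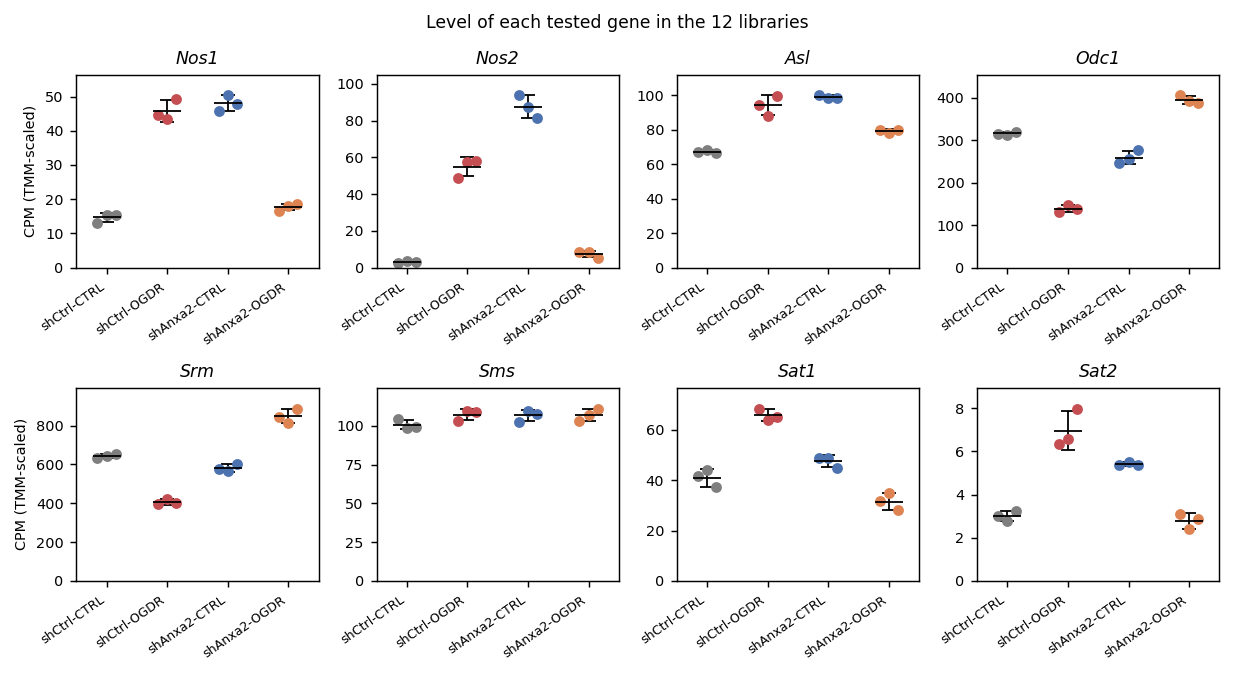
Scaled level (CPM, linear axis from 0) of each of the 8 tested genes in the 12 libraries. Points are libraries, and bars are the group mean ± SD (n = 3). Nos1, Nos2, Asl, Sat1 and Sat2 are higher in shCtrl-OGDR and shAnxa2-CTRL than in the other 2 groups, Odc1 and Srm are lower there, and the Sms groups overlap.

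Of the 2 genes that recycle citrulline to arginine, only Asl was expressed at a level that could be tested. Asl, argininosuccinate lyase (ENSMUSG00000025533, minus strand of chromosome 5), was at 66.9, 68.2 and 66.2 CPM in shCtrl-CTRL, 94.5, 88.0 and 99.7 CPM in shCtrl-OGDR, 99.9, 98.5 and 98.4 CPM in shAnxa2-CTRL, and 80.0, 77.8 and 79.6 CPM in shAnxa2-OGDR. It moved in the direction of Nos1 and Nos2 but by less, and all values in both of the higher groups lay above all values in both of the lower ones. After OGD/R its log2 change was 0.48 ± 0.05 in shCtrl cells (adjusted p = 8.52e-09) and -0.32 ± 0.05 in shAnxa2 cells (adjusted p = 7.7e-06). Between the lines it was 0.56 ± 0.05 without OGD/R (adjusted p = 1.17e-09) and -0.25 ± 0.05 after it (adjusted p = 0.000118).

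Ass1, argininosuccinate synthase, which catalyses the step before Asl (ENSMUSG00000076441, plus strand of chromosome 2), was near 0 in every group. Its counts were 0, 4 and 2 in shCtrl-CTRL, 0, 3 and 1 in shCtrl-OGDR, 1, 0 and 0 in shAnxa2-CTRL, and 0, 1 and 3 in shAnxa2-OGDR. A count of 3, the most that a count of 0 allows, corresponds to 0.11 to 0.154 CPM depending on the library, and this covers counting error only. No library exceeded 4 counts, so no difference between groups was detectable at this depth. An annotated copy, Gm5424, matches 1240 bases of the Ass1 transcript of 1696 bases at 99.5% identity and is not in the deposited table. How reads that fit both were counted is not given in the sources used here, so the low Ass1 counts are uncertain as a measure of its RNA.

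Arginase was near the detection limit in both of its forms. Arg2, the mitochondrial arginase (ENSMUSG00000021125, plus strand of chromosome 12), had 5, 0 and 7 counts in shCtrl-CTRL, 1, 1 and 0 in shCtrl-OGDR, 9, 7 and 9 in shAnxa2-CTRL, and 4, 5 and 0 in shAnxa2-OGDR. It did not pass the filter of 0.5 CPM in 3 libraries, and in a fit without the filter its adjusted p ranged from 0.0961 to 0.692 over the 5 comparisons. The end of Arg2 overlaps Vti1b on the other strand by 285 bases, and Vti1b had 17696 counts over the 12 libraries. The library kit does not mark strand, so reads in the overlap cannot be told apart. Arg1, the cytosolic arginase and a gene of the wider pathway list, had 4, 10 and 2 counts in shCtrl-CTRL, 10, 8 and 5 in shCtrl-OGDR, 1, 3 and 1 in shAnxa2-CTRL, and 2, 4 and 4 in shAnxa2-OGDR, and was not tested either.

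The polyamine genes, with Sat2 counted among them, split in direction. The genes for the first synthetic steps fell where the nitric oxide synthases rose. Sat1, a polyamine acetyltransferase gene, and its relative Sat2 rose with the nitric oxide synthases. The bases upstream of Odc1, Sat1 and Sat2, which were called in every comparison, are given here, because Odc1 moved opposite to Sat1 and Sat2. RefSeq's promoter sequences for GRCm38.p6 held 6 of the 10 genes. Each sequence below ends at the base before the outermost annotated start of the gene in GENCODE M21, is written on the strand of the gene, and overlaps no annotated exon. The windows are chr12:17544623-17544793 on the plus strand for Odc1, chrX:155216450-155216699 on the minus strand for Sat1 and chr11:69621802-69622023 on the plus strand for Sat2, all in GRCm38.p6. Capitals mark matches to any of the motifs searched.
Odc1: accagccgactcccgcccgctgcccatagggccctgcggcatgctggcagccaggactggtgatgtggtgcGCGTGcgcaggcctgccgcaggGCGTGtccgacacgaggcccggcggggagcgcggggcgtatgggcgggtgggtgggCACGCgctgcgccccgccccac
Sat1: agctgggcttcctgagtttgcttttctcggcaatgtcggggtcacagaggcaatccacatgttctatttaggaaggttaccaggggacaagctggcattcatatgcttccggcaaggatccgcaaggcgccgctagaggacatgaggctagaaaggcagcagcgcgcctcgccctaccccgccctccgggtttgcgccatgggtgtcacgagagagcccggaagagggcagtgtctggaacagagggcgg
Sat2: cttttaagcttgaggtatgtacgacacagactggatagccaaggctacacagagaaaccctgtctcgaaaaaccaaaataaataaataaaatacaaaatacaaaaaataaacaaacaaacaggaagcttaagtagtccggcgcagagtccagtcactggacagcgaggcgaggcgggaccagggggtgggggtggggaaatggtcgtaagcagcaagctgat

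The motifs, searched on both strands, were the NF-κB (kappaB) motif, the hypoxia response cores ACGTG and GCGTG, the E-box CACGTG (which contains ACGTG on both strands), the ATF4 element TGATGNAA and the GAS motif TTCNNNGAA. The Odc1 window of 171 bases, of which 77.2% are G or C, held GCGTG 3 times, 100 and 78 bases upstream of the gene start on the plus strand and 22 bases upstream on the minus strand. Of all 32851 promoters of the RefSeq table, 18.9% held any GCGTG in the same stretch. This share and those below were not matched to the G and C content of the windows. Neither the Sat1 window (250 bases, 59.6% G or C) nor the Sat2 window (222 bases, 45.9% G or C) held any of the motifs. GCGTG was in 28.2% of all promoters over the first of these lengths and in 25.3% over the second, and the kappaB motif in 3.9% and 3.48%. A match describes letters in this window and no binding was measured here.

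Odc1, ornithine decarboxylase, which makes putrescine (ENSMUSG00000011179, plus strand of chromosome 12 from 17594795 to 17601506 in mm39), was at 315.3, 313.0 and 319.0 CPM in shCtrl-CTRL and 130.6, 147.6 and 137.5 CPM in shCtrl-OGDR. In shAnxa2 cells it was at 246.7, 254.3 and 276.1 CPM in CTRL and 405.5, 390.8 and 386.1 CPM after OGD/R. No groups overlapped, and the order from high to low was shAnxa2-OGDR, shCtrl-CTRL, shAnxa2-CTRL and shCtrl-OGDR. After OGD/R the log2 change of Odc1 was -1.19 ± 0.0531 in shCtrl cells (adjusted p = 3.83e-15) and 0.61 ± 0.0520 in shAnxa2 cells (adjusted p = 1.09e-09). The line difference was -0.29 ± 0.0519 without OGD/R (adjusted p = 4.89e-05) and 1.51 ± 0.0534 after it (adjusted p = 3.82e-17). The Odc1 transcript has near-identical stretches, at least 95% identical over at least 200 bases, in 7 other annotated genes, of which 1, AW146154, is in the deposited table with 30 to 73 counts per library. Reads shared with these copies are uncertain, against at least 2684 counts of Odc1 in every library.

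Srm, spermidine synthase (ENSMUSG00000006442, plus strand of chromosome 4), had the highest level of the 10 genes on the per-kilobase scale in every group, from 254.0 ± 9.45 CPM per kilobase in shCtrl-OGDR to 531.1 ± 22.8 in shAnxa2-OGDR. By library it was at 635.3, 644.4 and 655.2 CPM in shCtrl-CTRL, 393.8, 423.0 and 401.6 CPM in shCtrl-OGDR, 576.2, 566.4 and 601.8 CPM in shAnxa2-CTRL, and 844.3, 815.6 and 888.0 CPM in shAnxa2-OGDR. The groups stood in the order of Odc1 and did not overlap. After OGD/R the log2 change was -0.67 ± 0.0467 in shCtrl cells (adjusted p = 9.87e-12) and 0.55 ± 0.0465 in shAnxa2 cells (adjusted p = 9.2e-10). Between the lines it was -0.15 ± 0.0464 without OGD/R (adjusted p = 0.00773) and 1.06 ± 0.0469 after it (adjusted p = 1.74e-15).

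Sms, spermine synthase, which adds the last aminopropyl group (ENSMUSG00000071708, minus strand of the X chromosome), passed the test in no comparison. Its levels were 104.4, 98.8 and 99.3 CPM in shCtrl-CTRL, 103.2, 109.4 and 108.8 CPM in shCtrl-OGDR, 102.6, 109.7 and 107.8 CPM in shAnxa2-CTRL, and 103.4, 107.1 and 111.2 CPM in shAnxa2-OGDR. All 4 groups overlapped. Its log2 changes were 0.088 ± 0.0478 and 0.0070 ± 0.0482 after OGD/R in shCtrl and shAnxa2 cells (adjusted p = 0.114 and 0.913), and 0.082 ± 0.0480 and 0.0020 ± 0.0481 between the lines without and after OGD/R (adjusted p = 0.144 and 0.977). The ratio of Srm to Sms per exon length, which compares the 2 successive synthases within a library, was 24.1 ± 1.04 in shCtrl-CTRL, 14.2 ± 0.338 in shCtrl-OGDR, 20.5 ± 0.940 in shAnxa2-CTRL and 29.8 ± 1.06 in shAnxa2-OGDR. The Sms transcript shares near-identical stretches with 3 other annotated genes.

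Sat1, the inducible spermidine and spermine acetyltransferase (ENSMUSG00000025283, minus strand of the X chromosome), was at 41.4, 44.2 and 37.1 CPM in shCtrl-CTRL, 68.4, 63.9 and 65.2 CPM in shCtrl-OGDR, 48.9, 48.9 and 44.7 CPM in shAnxa2-CTRL, and 31.6, 34.7 and 28.2 CPM in shAnxa2-OGDR. It was highest in shCtrl-OGDR, and the groups did not overlap, although the gap between shCtrl-CTRL (44.16 CPM at most) and shAnxa2-CTRL (44.69 CPM at least) was small. After OGD/R the log2 change was 0.69 ± 0.0710 in shCtrl cells (adjusted p = 9.06e-09) and -0.59 ± 0.0752 in shAnxa2 cells (adjusted p = 5.32e-07). Between the lines it was 0.21 ± 0.0726 without OGD/R (adjusted p = 0.0139) and -1.06 ± 0.0736 after it (adjusted p = 5.85e-12). The call without OGD/R rested on single libraries: it was lost without replicate 3 of shCtrl-CTRL (0.14, adjusted p = 0.12), replicate 1 of shAnxa2-CTRL (0.19, adjusted p = 0.0511) or replicate 2 of shAnxa2-CTRL (0.19, adjusted p = 0.0529). Near-identical stretches of Sat1 lie in 2 other annotated genes, neither of which is in the deposited table.

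Sat2, a relative of Sat1 that acts on thialysine (ENSMUSG00000069835, plus strand of chromosome 11), was much lower. It had 72, 76 and 88 counts in shCtrl-CTRL, 162, 172 and 156 in shCtrl-OGDR, 110, 115 and 135 in shAnxa2-CTRL, and 61, 60 and 59 in shAnxa2-OGDR. The scaled levels were 3.01 ± 0.225, 6.97 ± 0.897, 5.43 ± 0.0948 and 2.79 ± 0.370 CPM in the same order. Both higher groups lay above both lower ones, and shCtrl-CTRL (2.79 to 3.24 CPM) overlapped with shAnxa2-OGDR (2.38 to 3.11 CPM). After OGD/R the log2 change was 1.2 ± 0.144 in shCtrl cells (adjusted p = 1.05e-07) and -0.97 ± 0.156 in shAnxa2 cells (adjusted p = 1.26e-05). Between the lines it was 0.85 ± 0.149 without OGD/R (adjusted p = 3.25e-05) and -1.32 ± 0.151 after it (adjusted p = 3.47e-08).

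The ratio of Odc1 to Sat1 per exon length sets the entry into polyamine synthesis against the acetylation step. It was 6.20, 5.77 and 7.01 in shCtrl-CTRL, 1.55, 1.88 and 1.72 in shCtrl-OGDR, 4.11, 4.24 and 5.03 in shAnxa2-CTRL, and 10.5, 9.18 and 11.1 in shAnxa2-OGDR. The groups did not overlap, and on this scale Odc1 was the higher of the pair in all 12 libraries. The lengths used were 3405 bases for Odc1 and 2774 for Sat1, where their longest coding transcripts have 2208 and 1162 bases. Ratios with transcript lengths were not computed, so which gene was higher in shCtrl-OGDR, where the ratio was lowest, depends on the length. The ratio of Sat1 to Sat2 varied less, from 4.49 ± 0.196 in shAnxa2-CTRL to 7.03 ± 1.13 in shCtrl-CTRL. These are ratios of RNA levels, and neither enzyme activity nor polyamines were measured in these files.

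**Figure D2:**
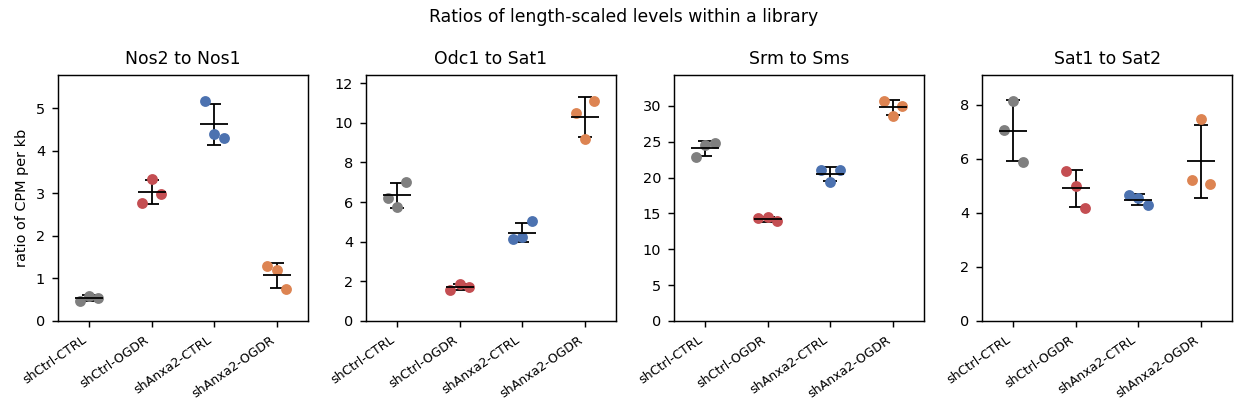
Ratios of CPM per kilobase of exon between 2 genes of the same library, on linear axes from 0, with points for libraries and bars for the group mean ± SD (n = 3). The Odc1 to Sat1 ratio is lowest in shCtrl-OGDR (1.72 ± 0.164) and highest in shAnxa2-OGDR (10.3 ± 0.998).

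Counted together, 8 of the 10 genes passed the filter on low counts and 7 of these 8 passed the test in each comparison, all but Sms. After OGD/R in shCtrl cells, 5 were higher (Nos1, Nos2, Asl, Sat1 and Sat2) and 2 lower (Odc1 and Srm), where 32.4% of all genes tested were called higher and 31.0% lower. After OGD/R in shAnxa2 cells, 2 were higher and 5 lower, against 28.2% and 26.8% of all genes. In shAnxa2 against shCtrl cells without OGD/R, 5 were higher and 2 lower, against 29.5% and 29.7%, and after OGD/R 2 were higher and 5 lower, against 33.8% and 34.2%. The 7 called genes had no overlap between the 3 and 3 libraries in any of these comparisons, which also held for 68.0%, 58.9%, 63.6% and 69.9% of all genes tested in the same order. With most of the tested genes called, the number of members called says little about them. A log2 change of 1 or more, up or down, was reached after OGD/R by Nos1, Nos2, Odc1 and Sat2 in shCtrl cells, where 7.03% of all genes tested reached it, and by Nos1 and Nos2 in shAnxa2 cells, where 3.95% did. Between the lines it was reached by Nos1 and Nos2 without OGD/R (5.92% of all genes) and by all called genes except Asl after it (10.3%).

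**Figure D3:**
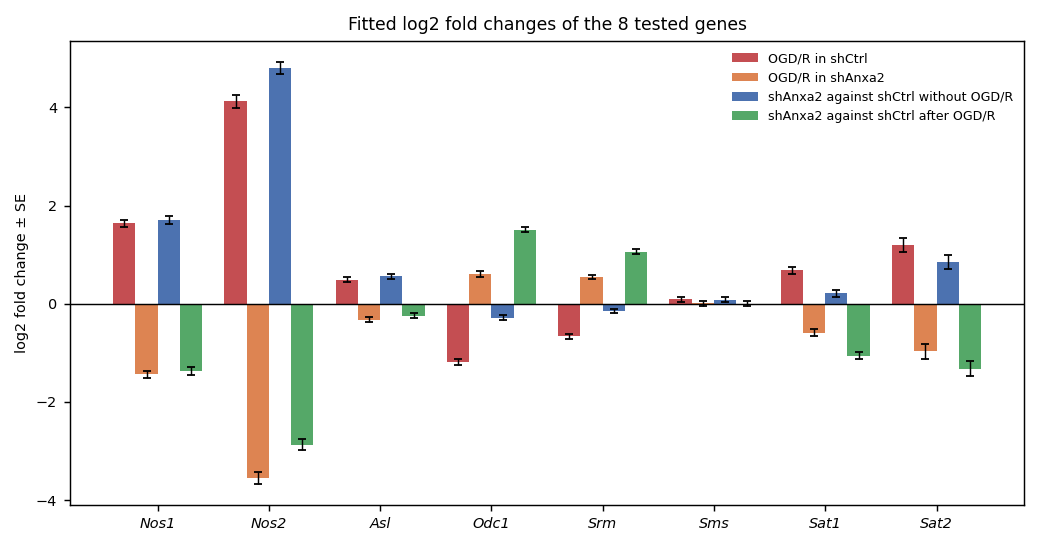
Fitted log2 changes (bars, from 0) with their standard errors for the 8 tested genes in 4 comparisons. Each gene other than Sms has opposite signs for OGD/R in shCtrl and in shAnxa2 cells, with Nos2 at 4.12 and -3.55 the largest of the 8 in each.

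The difference between the lines in their response to OGD/R was tested as an interaction, the log2 change in shAnxa2 cells minus that in shCtrl cells. It passed the test for 7 of the 8 genes, 2 with a positive and 5 with a negative value, where 34.9% of all genes tested were called positive and 35.1% negative. The largest was that of Nos2, at -7.68 ± 0.172 (adjusted p = 1.84e-20), followed by Nos1 at -3.08 ± 0.109 (adjusted p = 2.33e-17). Sms had an interaction of -0.080 ± 0.0679 (adjusted p = 0.297). The median interaction of the 8 tested genes was -1.04, beside -0.0060 over all genes tested. The genes were chosen with earlier results of these data known, so this median describes them and is no test of the set. All 7 called genes described here had opposite signs in the 2 lines, as did 98.6% of the genes called in both lines, so the reversal is not particular to them. Of all genes tested, 46.6% moved in opposite directions with no overlap between libraries in either line.

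**Figure D4:**
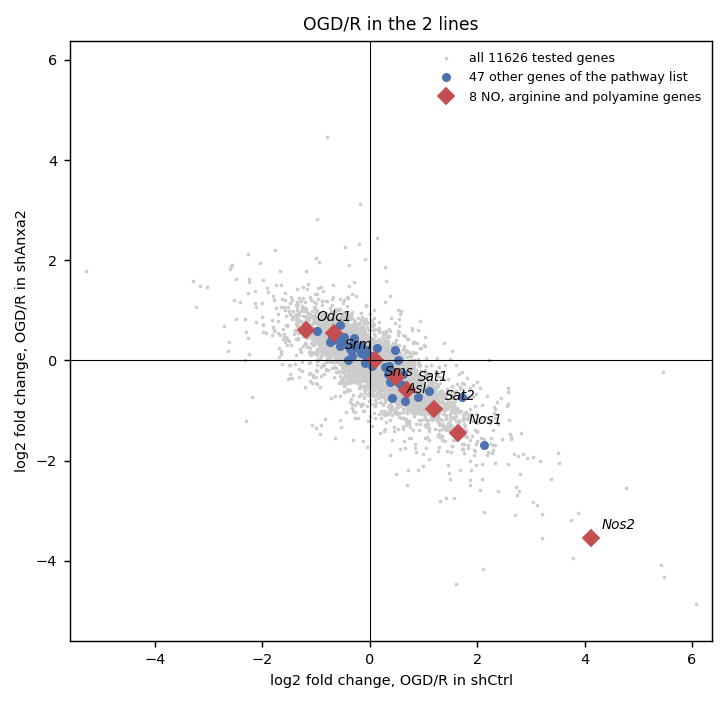
Log2 change after OGD/R in shCtrl cells (horizontal) and in shAnxa2 cells (vertical) for all 11626 genes tested (grey), 47 other genes of the pathway list (blue) and the 8 tested genes (red, named). Most points lie in the 2 quadrants of opposite sign, and Nos2 lies far from the origin at 4.12 and -3.55.

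The wider pathway was read from a list of 59 other genes, of which 47 passed the filter. After OGD/R in shCtrl cells 14 of the 47 were higher and 15 lower, and in shAnxa2 cells 15 were higher and 10 lower, counts to be read against the shares of all genes given above (32.4% and 31.0%, and 28.2% and 26.8%), as are those of the smaller groups below. Between the lines 14 were higher and 13 lower without OGD/R, where 29.5% and 29.7% of all genes tested were. After OGD/R 24 were higher and 15 lower, against 33.8% and 34.2% of all genes. The interaction was called for 34 of them, 20 positive and 14 negative, against 34.9% and 35.1% of all genes. The median log2 changes in these 4 comparisons were -0.10, 0.11, -0.032 and 0.18, beside 0.0050, 0.0040, 0.0010 and -0.0030 over all genes. All 22 genes of the list that were called after OGD/R in both lines had opposite signs, as did 98.6% of all genes called in both.

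Among genes for tetrahydrobiopterin, the cofactor of nitric oxide synthases, Gch1, the rate-limiting enzyme of its synthesis, differed mainly by line. It was at 21.4 ± 0.972 CPM (shCtrl-CTRL), 26.1 ± 0.811 CPM (shCtrl-OGDR), 51.2 ± 3.53 CPM (shAnxa2-CTRL) and 46.9 ± 0.672 CPM (shAnxa2-OGDR), so it was higher in shAnxa2 cells both without OGD/R (log2 change 1.26 ± 0.0662, adjusted p = 8.98e-14) and after it (0.85 ± 0.0659, adjusted p = 4.67e-11). After OGD/R, Gch1 rose slightly in shCtrl cells (0.286 ± 0.069, adjusted p = 0.000888) and did not pass the test in shAnxa2 cells (-0.13 ± 0.0629, adjusted p = 0.0944). Its interaction was called (-0.412 ± 0.0934, adjusted p = 0.000403). Of the 7 tested genes of this group, 2 rose and 2 fell after OGD/R in shCtrl cells, and 2 rose and none fell in shAnxa2 cells. Nos3, the endothelial synthase, averaged 0.283 to 0.659 CPM and was called in no comparison. Dynll1, a light chain first described as an inhibitor of Nos1, changed after OGD/R by -0.66 ± 0.0618 (log2) in the shCtrl line and 0.43 ± 0.0611 in the shAnxa2 line (adjusted p = 1.58e-09 and 2.21e-06). It belongs to a group of 10 synthase regulators and nitric oxide receptor genes, of which 6 were tested, and 2 rose and 2 fell after OGD/R in either line.

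All 7 arginine and ornithine transport genes on the list passed the filter. After OGD/R in shCtrl cells none rose and 4 fell, where 32.4% of all genes tested rose and 31.0% fell. Among the 4 was Slc7a2, a cationic amino acid transporter known from activated macrophages (-0.48). In shAnxa2 cells 4 rose and 1 fell after OGD/R. Slc7a7, a light chain of a cationic amino acid exporter, was the one that fell (-0.75 ± 0.197, adjusted p = 0.00259) from a low level of 3.30 ± 0.528 CPM in shAnxa2-CTRL, and it overlaps Oxa1l. The range of log2 changes in this group after OGD/R was -0.55 to 0.41 in shCtrl cells, where Nos1 changed by 1.64.

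The genes that make proline from glutamate, a route that shares its intermediate with ornithine, did not move as one. Aldh18a1, which makes that intermediate, and Pycr1, a mitochondrial pyrroline-5-carboxylate reductase, rose after OGD/R in shCtrl cells (0.56 ± 0.0442 and 1.71 ± 0.120, adjusted p = 9.64e-11 and 1.15e-11) and fell in shAnxa2 cells (-0.47 ± 0.0443 and -0.73 ± 0.131, adjusted p = 5.24e-09 and 4.83e-05). Pycr3, the cytosolic reductase, which the table lists under its older name Pycrl, did the opposite (-0.69 ± 0.0532 in shCtrl and 0.48 ± 0.0527 in shAnxa2 cells, adjusted p = 5.53e-11 and 5.67e-08). In all, 3 of the 8 tested genes of this group rose and 2 fell after OGD/R in shCtrl cells, and 2 rose and 2 fell in shAnxa2 cells.

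Genes that control polyamine synthesis and oxidation were called in both directions. Amd1, which supplies the aminopropyl donor to Srm and Sms, moved as Odc1 and Srm did, at 87.9 ± 7.36 CPM (shCtrl-CTRL), 52.3 ± 1.92 CPM (shCtrl-OGDR), 62.3 ± 5.74 CPM (shAnxa2-CTRL) and 80.6 ± 6.98 CPM (shAnxa2-OGDR). Its log2 change after OGD/R was -0.75 ± 0.0712 in shCtrl and 0.38 ± 0.0715 in shAnxa2 cells (adjusted p = 2.13e-09 and 9.58e-05), with the limit that Amd2 is 99.6% identical over 3202 bases. The oxidases Smox and Paox moved as Sat1 and Sat2 did: after OGD/R, Smox changed by 0.66 ± 0.0874 in shCtrl and -0.82 ± 0.0860 in shAnxa2 cells (adjusted p = 5.01e-07 and 2.62e-08). Paox, which oxidizes acetylated polyamines, changed by 1.09 ± 0.0956 and -0.61 ± 0.105 (adjusted p = 4.96e-10 and 3.12e-05). Oaz2, an antizyme that inhibits ornithine decarboxylase protein, rose in shCtrl and fell in shAnxa2 cells after OGD/R (0.62 ± 0.0844 and -0.48 ± 0.0871, adjusted p = 7.27e-07 and 5.26e-05). Oaz1, a far more abundant antizyme (group means of 310.7 to 459.6 CPM), rose in shCtrl cells (0.355 ± 0.0499, adjusted p = 1.19e-06). Its change in shAnxa2 cells was not called (-0.11 ± 0.0502, adjusted p = 0.0662). Azin2, which relieves antizyme inhibition, moved as Oaz2 did, by 2.13 ± 0.271 and -1.68 ± 0.251 (adjusted p = 2.57e-07 and 4.62e-06), at a mean of 0.972 to 5.2 CPM. The other antizyme inhibitor of the list, Azin1, was far more abundant and its means moved the other way. It was at 150.4 ± 2.85 CPM in shCtrl-CTRL and 121.8 ± 4.50 CPM in shCtrl-OGDR. In shAnxa2 cells it was at 131.9 ± 10.1 CPM without and 156.6 ± 7.31 CPM after OGD/R. Of the 14 tested genes of this group, 6 rose and 3 fell after OGD/R in shCtrl cells, and 3 rose and 4 fell in shAnxa2 cells. Oaz2 and Paox each have 1 near-identical annotated copy.

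The salvage of methylthioadenosine, the by-product of both spermidine and spermine synthesis, was tested with all 5 genes of its list. Mtap, its first enzyme, was at 145.9 ± 4.90 CPM (shCtrl-CTRL), 90.6 ± 5.29 CPM (shCtrl-OGDR), 113.2 ± 5.41 CPM (shAnxa2-CTRL) and 150.6 ± 4.44 CPM (shAnxa2-OGDR). Its log2 change after OGD/R was -0.69 ± 0.0509 in shCtrl and 0.41 ± 0.0507 in shAnxa2 cells (adjusted p = 2.87e-11 and 3.12e-07). Enoph1, a later enzyme of the same route, changed by -0.71 ± 0.0681 and 0.47 ± 0.0682 (adjusted p = 2.31e-09 and 3.36e-06). In this group 1 gene rose and 2 fell after OGD/R in shCtrl cells, and 2 rose and 1 fell in shAnxa2 cells.

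The genes whose profile over the 12 libraries was most like that of Nos2 were ranked by root mean square difference, with log2(CPM + 0.1) values of each gene centred on their mean, over 9357 genes that averaged 5 CPM or more. The nearest were F10, coagulation factor X (0.690), Ntng2, a netrin-G protein (0.722), Lcn2, the siderophore-binding lipocalin 2 (0.790), Selenbp1, selenium-binding protein 1 (0.821) and Cp, ceruloplasmin (0.895), where the median over all genes compared was 2.01. Lcn2 was at 1.42 ± 0.406 CPM (shCtrl-CTRL), 10.8 ± 1.45 CPM (shCtrl-OGDR), 16.6 ± 3.53 CPM (shAnxa2-CTRL) and 4.25 ± 0.573 CPM (shAnxa2-OGDR). The interaction was -5.38 for F10 and -6.28 for Selenbp1, both smaller in size than that of Nos2, but Selenbp1 differed more between the lines after OGD/R (-3.58, against -2.87 for Nos2). Selenbp1 was higher in shCtrl-OGDR (137.5 ± 24.2 CPM) than in shAnxa2-CTRL (96.7 ± 5.32 CPM), the reverse of Nos2 in those 2 groups. Left out of this ranking were the other members and genes with no name or only a provisional one. Genes of the pathway list were not left out.

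**Figure D5:**
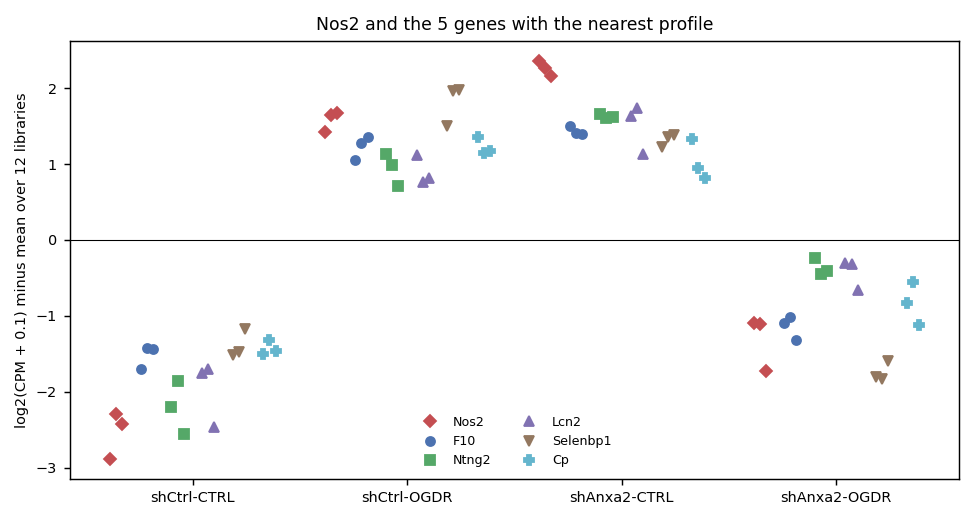
Nos2 and the 5 genes with the nearest profile, as log2(CPM + 0.1) minus the mean of each gene over the 12 libraries, with 1 point per library. All 6 genes lie above 0 in shCtrl-OGDR and shAnxa2-CTRL and below 0 in shCtrl-CTRL and shAnxa2-OGDR. The 5 genes were picked for likeness to Nos2 over these same values, so the shared pattern follows from the choice.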

How the data were processed

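RNA of 12 BV2 libraries was prepared with the NEBNext Ultra RNA kit. The authors deposited raw, unnormalized read counts of 21834 protein-coding genes, and the submitters' processing notes name HISAT2 2.0.4 and mm39. HTSeq counting is named in the study's methods for its hippocampal RNA-seq. The settings for reads that fit several places are not given in the sources used here. A further 12 per-sample columns, which hold these counts after scaling by library, were not used.

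Counts were tested with edgeR 4.0.16 in R 4.3.3: TMM normalization, a filter of 0.5 CPM or more in 3 or more libraries, 1 quasi-likelihood model with a coefficient per group, and Benjamini-Hochberg adjustment over 11626 genes, called at an adjusted p under 0.05. The standard error is the size of a log2 fold change divided by the square root of F. The steps were tested on simulated counts. The common biological coefficient of variation was 5.35%. Libraries had a median of 24531756 counts, and replicates of a group differed by more than counting error (chi-square per gene 4.0 to 13.3), so each was counted once.

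The members and lists were chosen with earlier results of these data known. All 10 members are named. Of the 59 pathway genes, those named were called at a log2 fold change of 1 or more, up or down, in some comparison and a mean of 1 CPM or more, besides Arg1, and a few more were added after their values were seen (Nos3, Slc7a2, Amd2, Azin1, Oaz1). A gene that this rule names is not reported here. Older symbols were matched through RefSeq. Near-identical copies were sought with blastn 2.17.0 in GENCODE M21 transcripts. Alternatives were median-of-ratios factors, DESeq2 1.42.0, other filters, a replicate block, fits with only the groups compared, other call rules and leaving out each library.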

Additional observations from a re-analysis of the deposited data

Results flagged for a closer look

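The response to OGD/R differed between the shCtrl and shAnxa2 lines for 7 of the 8 tested genes, by the interaction in edgeR's quasi-likelihood test. The interaction, on the log2 scale, was -3.08 for Nos1, -7.68 for Nos2, -0.81 for Asl, 1.79 for Odc1, 1.21 for Srm, -1.27 for Sat1 and -2.17 for Sat2. The adjusted p was 3.21e-10 for Asl, 3.54e-16 for Odc1, 5.32e-14 for Srm, 8.17e-11 for Sat1 and 2.31e-09 for Sat2. In each of the 7 genes all 3 OGDR libraries lay on one side of the 3 CTRL libraries in shCtrl cells and on the other side in shAnxa2 cells, as they did in 46.6% of all genes tested. The interaction was called for 34.9% of all genes tested with a positive and 35.1% with a negative value.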

How the results depend on the processing

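Of 712 values of the 40 member results under the alternatives, 700 kept their direction and their side of the threshold, 3 fell short of it (Sat1 between the lines without OGD/R, as given above) and 9 changed sign, all of Sms, which was called under none of them. For Sms after OGD/R in shAnxa2 cells the log2 fold change was -0.024 with no filter, -0.000244 with a filter of 1 CPM, -0.0045 with only the groups compared and -0.020 to 0.032 when 1 library was left out. Between the lines after OGD/R it was -0.014 with no filter, -0.0080 with a filter of 1 CPM and -0.023 to 0.027 when 1 library was left out. The cause was not tested.

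With calls limited to a log2 fold change of 1 or more, up or down, at an unadjusted p under 0.05, 4 members were called after OGD/R in shCtrl cells, 2 in shAnxa2 cells, 2 between the lines without OGD/R, 6 after it and 6 for the interaction. Of the pathway genes, 3, 1, 3, 3 and 15 were then called for OGD/R in shCtrl, OGD/R in shAnxa2, the lines without OGD/R, the lines after OGD/R and the interaction. A log2 fold change of that size, whatever its p, was reached by 7.03%, 3.95%, 5.92%, 10.3% and 22.6% of all genes tested in the same order. With 1 library left out, 6 to 7 members were called between the lines without OGD/R and 7 in the other comparisons.

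Replicate numbers are shared across groups, but libraries with the same number did not deviate together (correlation -0.051 to 0.135 over 18 pairs, 1 above 0.1, and 6 of 12 libraries correlated best with their own number). With the replicate number as a block, 7 members were called in every comparison, and 30, 25, 27, 37 and 34 pathway genes, in the order above. Ass1, Arg1 and Arg2 had too few counts for a change to be measured, and the cause of their low counts was not tested.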
